A study of Drosophila melanogaster with 6 samples.

Results

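LINE elements are retrotransposons without long terminal repeats, copied into new genomic sites through an RNA that their own reverse transcriptase reads. The rows described here are those of the deposited table whose name ends in :LINE, without the telomere elements HETA, TAHRE and TART. They number 34 of 13216 rows in the table, where 216 rows are repeats and 38 are LINE rows. By the superfamily in the row name they comprise 24 Jockey rows, 5 R1 rows, 2 I rows and 1 row each of R2, CR1 and LOA. A row is named for an element and not for a copy, so it does not say which genomic copy was transcribed.

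The libraries were made from total RNA of ovaries, dissected from Drosophila melanogaster at an age of 1 to 3 days. Females had been collected at 0 to 2 days and given wet yeast for 24 hours, with stocks kept at 25 °C. The wild type group was the stock wBerlin (3 libraries). The GCNA null group (GCNA-/-, 3 libraries) carried a null allele from a CRISPR construct described as both knock-in and knock-out, and had been crossed to wBerlin for 10 generations. The gene, Gcna, encodes a germ cell nuclear protein and is listed as CG14814. Any founder chromosome segment that survived the crossing would also differ between the groups. Whole ovaries hold germline, follicle and muscle cells, and fewer cells of a type cannot be told apart from less RNA per cell.

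The libraries held 38401723 to 55758180 counted reads, and the values given are counts normalized for library size, where 1 read is worth about 1 unit. CG14814 had 18292 to 20676 normalized counts in wild type and 428 to 520 in GCNA null libraries. GCNA null replicates 1 and 2 were almost the same library. Over the LINE rows their reads differed by a chi-square of 0.896 per degree of freedom, against 6.36 to 106.2 in the other 5 pairs within a group. Their mean was therefore counted as 1 sample, and means ± SD are over 3 wild type and 2 GCNA null samples. The labels do not say whether each library had its own flies. The p-values therefore reflect the spread between these particular samples, and that spread may be technical. Markers of the germline (8 of 8 genes) and of follicle cells (10 of 10 genes) were detected in both groups, as the label ovary implies.

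In the fly germline, transcripts of LINE elements are cut and their genomic copies silenced by Piwi proteins loaded with piRNAs. The I element is known from hybrid dysgenesis, in which it moves in the germline of daughters whose mothers lacked piRNAs against it. Elements R1 and R2 insert at fixed places in the gene for the large ribosomal RNA and are transcribed with it, whereas Jockey, Doc, F and G elements are scattered through the genome.

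Reads of LINE rows outside telomeres made up a larger share of GCNA null libraries. Values of a group are given in replicate order. LINE rows took 0.0763%, 0.0816% and 0.0773% of all wild type reads, and 0.150%, 0.150% and 0.109% of all GCNA null reads. All 3 GCNA null libraries lay above the wild type range, and replicate 3 lay nearest to it. The mean was 0.0784% ± 0.00283 (SD, n = 3) in wild type and 0.129% ± 0.0285 (SD, n = 2) in GCNA null ovaries. The single R2 row supplied 80.2% of the increase in summed normalized counts. It held 27.8% to 39.6% of the counts of these LINE rows in wild type and 49.9% to 52.0% in GCNA null libraries. With R2 left out, the LINE share of reads was 0.0531%, 0.0493% and 0.0558% in wild type libraries, and 0.0718%, 0.0723% and 0.0547% in GCNA null ones. GCNA null replicate 3 then fell inside the wild type range. These sums are given as a description, with no test.

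**Figure D1:**
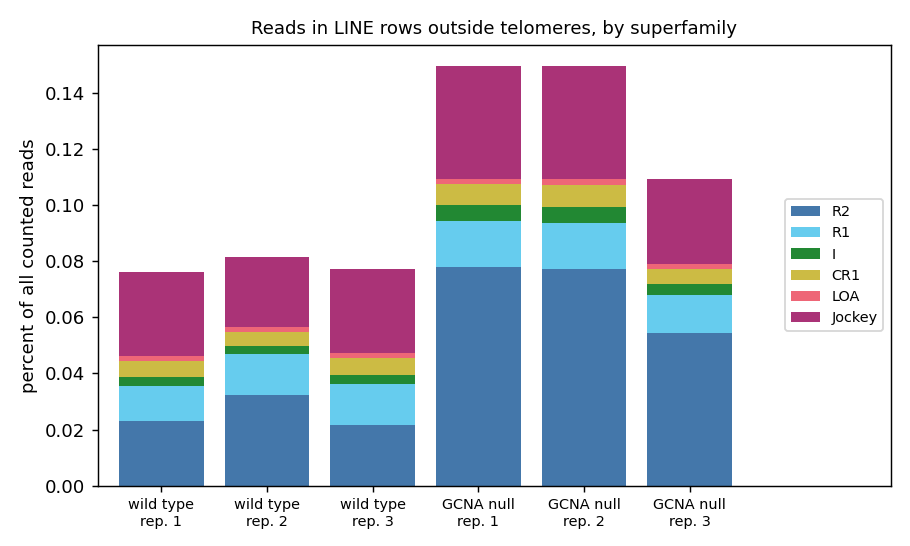
Percent of all counted reads that fell in LINE rows outside telomeres, for each of 6 libraries, stacked by superfamily. The R2 part grows from 0.0215% to 0.0323% in wild type to 0.0545% to 0.0779% in GCNA null libraries, while the R1 part stays between 0.0125% and 0.0164%.

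Of the 34 rows, 33 had at least 10 normalized counts in at least 3 libraries and were tested. With limma on log2(normalized count + 1), adjusted over all 10132 tested rows, 3 rose and none fell, with an adjusted p under 0.05 as the threshold. Over all tested rows 4.25% rose and 2.11% fell, 6.37% in all. The rows that rose were R2_DM:R2:LINE, DOC6_DM:Jockey:LINE and Jockey2:Jockey:LINE. At an unadjusted p under 0.05 there were 11 higher LINE rows and 1 lower (12.4% and 10.7% of all rows). edgeR on the recovered reads called 3 LINE rows higher and 0 lower (4.52% and 1.92% of all rows). DESeq2 called 8 higher and 0 lower (7.45% and 5.35% of all rows). With 6 separate samples limma called 10 higher and 1 lower (9.23% and 7.39% of all rows), and with a replicate block added 5 and 0 (6.32% and 4.71%). Fits with 6 separate samples, here and below, count the nearly identical GCNA null replicates 1 and 2 as independent. The block treats libraries of the same number as pairs, which could not be established. The count of 3 higher LINE rows rested on single libraries. It was 1 without wild type replicate 1, 1 without replicate 2, 0 without replicate 3, 0 without GCNA null replicates 1 and 2, and 7 without GCNA null replicate 3. Over all rows the number that rose, 431 in the fit with 5 samples, was 270, 260, 222, 94 and 327 in these fits. Of these settings, the last 2 set 1 GCNA null sample, assumed to vary like the wild type, against 3.

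R2_DM:R2:LINE had the most reads of these rows. R2 makes a protein that nicks the ribosomal RNA gene at its target and primes reverse transcription there. The annotation (BDGP6, the dm6 assembly) names 1 R2 insertion, on the plus strand of the X chromosome at 23220092 to 23223699 (3608 bp), in no other annotated gene. That is a count of annotated insertions and does not give the number of R2 copies in either stock. R2_DM had 10324, 15114 and 9795 normalized counts in wild type libraries, and 34387, 33999.6 and 25113 in GCNA null ones. The groups did not overlap, and wild type replicate 2 stood above the other two, with a highest value 1.54 times the lowest. The mean rose from 11744 ± 2930.3 to 29653 ± 6421, a log2 difference of 1.35 (SE 0.21, 95% interval 0.83 to 1.86, limma adjusted p = 0.019). The row lost its call without wild type replicate 1 (limma adjusted p = 0.059), without wild type replicate 3 (0.067), without GCNA null replicates 1 and 2 (0.127) and with robust empirical Bayes (0.0505). The number of ribosomal RNA genes that carry R2 in either stock was not analysed here.

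R1_DM:R1:LINE, the R1 element of the same ribosomal RNA gene, did not pass. It had 1934, 2937 and 2541 normalized counts in wild type, and 3087, 2976 and 2705 in GCNA null libraries. These groups overlapped, since wild type replicate 2 lay above GCNA null replicate 3 (log2 difference 0.23, 95% interval -0.17 to 0.64, limma adjusted p = 0.458). Within a library, R2_DM had 5.34, 5.15 and 3.86 reads per R1_DM read in wild type, and 11.1, 11.4 and 9.29 in GCNA null libraries. The ratio was 2.15 times higher in GCNA null samples and higher in every GCNA null library than in any wild type library. A two-sided exact permutation test over 5 samples gave p = 0.2, the smallest that 3 against 2 samples allow. With 6 separate samples, which count the nearly identical GCNA null replicates 1 and 2 as independent, the exact permutation p was 0.1, again the smallest possible.

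The other R1 rows had small differences of either sign. R1-2_DM:R1:LINE had 37.4, 31.7 and 45.8 normalized counts in wild type and 39.1, 39.4 and 38.2 in GCNA null libraries, with only 112 and 122 reads behind each group. DMRT1B:R1:LINE, one of the R1 relatives named Rt1, had 2353, 2648 and 2737 against 2912, 2978 and 2465. Its log2 difference was 0.07 (95% interval -0.18 to 0.31). DMRT1A and DMRT1C had log2 differences of -0.18 and -0.26. All 5 R1 rows overlapped between the groups, and their median log2 difference was 0.03.

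DOC6_DM:Jockey:LINE carries the name of Doc, a family of Jockey elements with an internal promoter. It had 613, 505 and 494 normalized counts in wild type and 973, 999 and 908 in GCNA null libraries. The groups were far apart and replicate 3 stood close to the other GCNA null libraries. The mean rose from 537.5 ± 66.01 to 947 ± 55.2, a log2 difference of 0.82 (SE 0.12, 95% interval 0.53 to 1.12, limma adjusted p = 0.015). Its call was lost without wild type replicate 2 (limma adjusted p = 0.058), wild type replicate 3 (0.055), or GCNA null replicates 1 and 2 (0.116).

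Jockey2:Jockey:LINE had 311, 265 and 292 normalized counts in wild type and 505, 537 and 458 in GCNA null libraries. Again the groups did not overlap. The mean rose from 289.6 ± 23.1 to 489.5 ± 44.6, a log2 difference of 0.76 (SE 0.13, 95% interval 0.45 to 1.06, limma adjusted p = 0.024). Leaving out any wild type library ended its call (limma adjusted p = 0.054, 0.070 and 0.080 without replicates 1, 2 and 3), as did leaving out GCNA null replicates 1 and 2 (0.153) and quantile normalization (0.054). The annotation lists 28 jockey2 insertions, the longest of 3424 bp. These overlap 5 tested genes, of which CG30440 was lower (log2 difference -1.64) and none higher.

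The rows nearest to the threshold without passing it were the I element and Helena. I_DM:I:LINE had 1065, 1085 and 1078 normalized counts in wild type, the closest agreement of any tested LINE row, with a highest value 1.02 times the lowest. The GCNA null libraries had 1725, 1701 and 1321, all above wild type. The log2 difference was 0.48 (95% interval 0.21 to 0.76, limma adjusted p = 0.064), and the row passed with 6 separate samples (limma adjusted p = 0.015), with the replicate block added (0.035), with robust empirical Bayes (0.041), with DESeq2 (adjusted p = 0.0038) and without GCNA null replicate 3 (limma adjusted p = 0.019). HELENA_RT:Jockey:LINE, a row named for the reverse transcriptase part of Helena, had 80.4, 80.3 and 83.9 against 164, 152 and 126, from 239 and 461 reads. Its log2 difference was 0.78 (95% interval 0.33 to 1.24, limma adjusted p = 0.064). It passed with 6 separate samples (limma adjusted p = 0.012), with the replicate block added (0.046) and with DESeq2 (adjusted p = 0.021). Helena has 9 annotated insertions, the longest of 1438 bp.

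**Figure D2:**
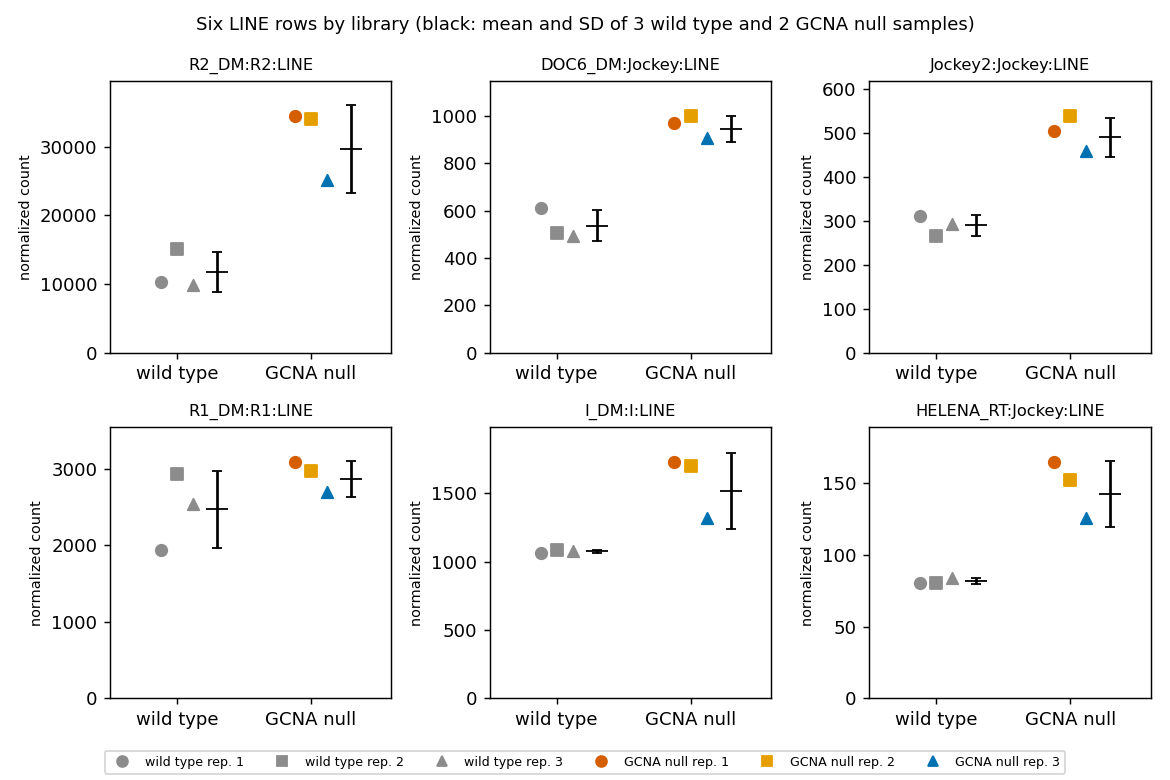
Normalized counts of R2_DM, DOC6_DM, Jockey2, R1_DM, I_DM and HELENA_RT in each library, with black marks for the mean and SD of 3 wild type and 2 GCNA null samples. The groups are apart in every panel but that of R1_DM, and GCNA null replicate 3 (blue) is the lowest GCNA null value in all 6.

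Most other rows were measured higher in GCNA null replicates 1 and 2 and near wild type in replicate 3. The mean of replicates 1 and 2 lay above the wild type mean (log2 scale) in 28 of 33 tested rows (84.8%, against 50.4% of all rows), with a median log2 difference of 0.39. Replicate 3 lay above it in 17 of 33 rows (51.5%, against 49.9% of all rows), with a median of 0.01. It was below the mean of replicates 1 and 2 in 31 of 33 rows (93.9%, against 48.5% of all rows). Other repeats were much alike. These 3 shares were 82.3%, 58.5% and 84.6% in LTR rows, and 88.9%, 59.3% and 88.9% in DNA transposon rows. Over both samples 27 of 33 log2 differences of LINE rows were positive, against 49.9% of all rows, 76.9% of LTR rows and 74.1% of DNA transposon rows. The median was 0.19 in LINE rows against -0.00045 in all rows. All 3 GCNA null libraries exceeded all 3 wild type libraries in 13 of 33 rows, and lay below them in 2. The same was seen in 19.6% and 19.3% of all tested rows. Replicates 1 and 2 enter this count as separate libraries, although they were almost the same.

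**Figure D3:**
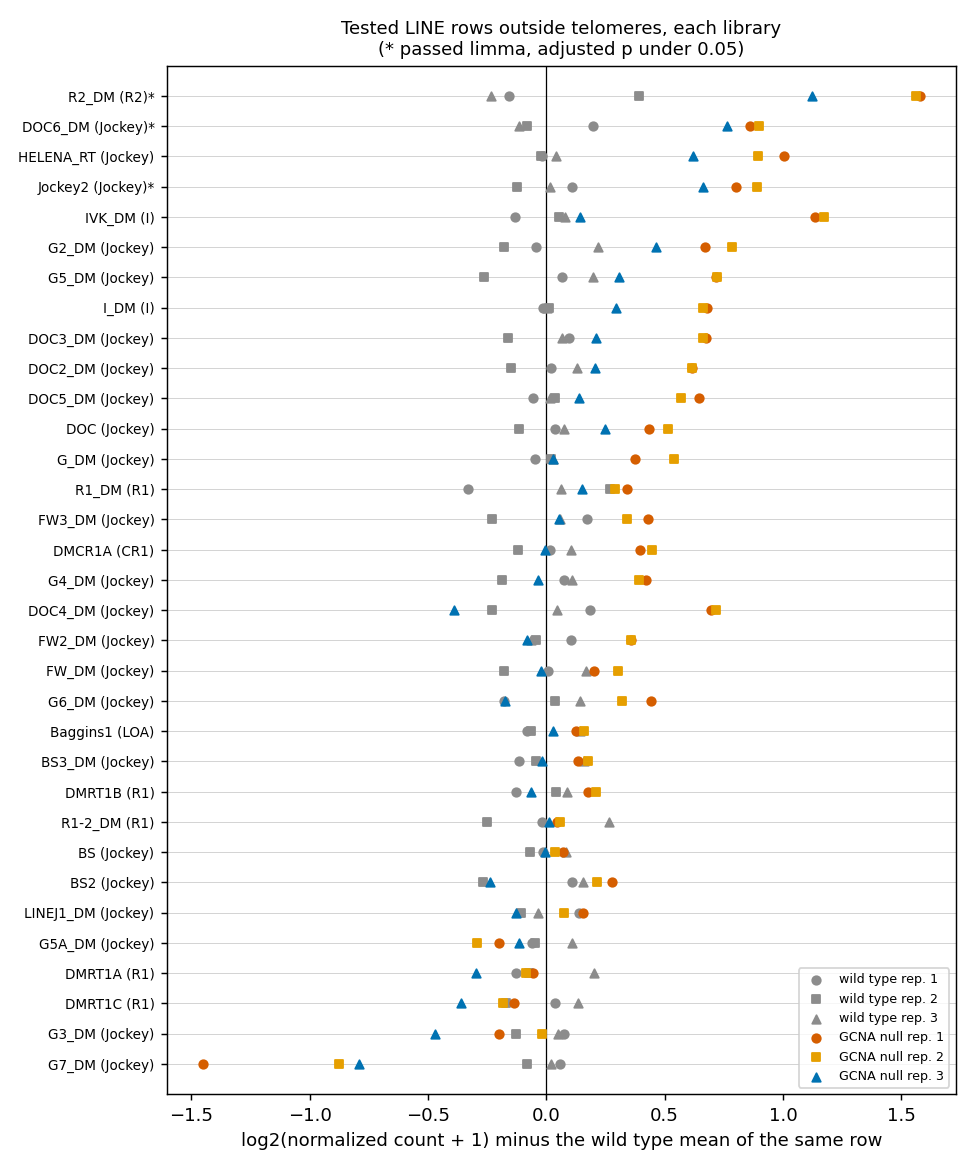
Each library's log2(normalized count + 1) minus the wild type mean of that row, for the 33 tested LINE rows in order of their log2 difference. GCNA null replicates 1 and 2 (orange shades) coincide to the right of 0 in most rows, while replicate 3 (blue) lies nearer to the wild type libraries (grey), above them in the upper rows and below them in several of the lowest.

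On the log2 scale, the gap between GCNA null replicate 3 and the mean of replicates 1 and 2 was widest in IVK_DM and DOC4_DM. These 2 rows are named here after their values were seen. IVK_DM:I:LINE, of the I superfamily, had 324, 370.0 and 376 normalized counts in wild type, 784 and 806 in GCNA null replicates 1 and 2, and 394 in replicate 3. DOC4_DM:Jockey:LINE had 458, 344 and 416 in wild type, 653 and 664 in replicates 1 and 2, and 308 in replicate 3, below every wild type library. Neither passed (limma adjusted p = 0.229 and 0.798). Their log2 differences against wild type were 1.16 and 0.71 in replicates 1 and 2, and 0.14 and -0.39 in replicate 3.

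Summed markers of several other cell types, of the ovary and of other tissues, also set replicate 3 apart from replicates 1 and 2. The 10 follicle cell markers took 1.70% to 1.96% of wild type reads. Their share was 0.762% and 0.720% in GCNA null replicates 1 and 2, but 1.66% in replicate 3. The 7 muscle sheath markers took 0.0540% to 0.0928%, then 0.0958% and 0.0941%, and 0.0469% in replicate 3. For the 4 hemocyte markers the shares were 0.00588% to 0.0116%, 0.0156% in both, and 0.00560%, and for the 4 fat body markers 0.0129% to 0.0207%, 0.00718% and 0.00736%, and 0.0225%. The 8 germline markers varied less, from 0.343% to 0.412% in wild type and 0.330% to 0.370% in GCNA null libraries. The 4 testis markers found took 0.000438% to 0.000465% and 0.000393% to 0.000427%. No marker was at 0 in all libraries. Single genes weighed heavily in these sums. In wild type replicate 1, Cp38 and Vm34Ca held 203734 and 204156 of 758660 normalized counts of follicle cell markers. Ppn held 1823 of 2622 for hemocytes, and Rfabg 5429 of 5753 for fat body. Of the follicle cell markers, 2 had a positive log2 difference and 8 a negative one, and of the germline markers 1 and 7. These counts were 1 and 6 for muscle sheath, 4 and 0 for hemocytes, 1 and 3 for fat body, and 1 and 1 for tested testis markers. Over all tested rows 49.9% were positive. The part of these cell types in the LINE values was not tested.

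By name, the 6 Doc rows all had positive log2 differences, from 0.16 to 0.82 (median 0.39), and in 5 of them all 3 GCNA null libraries exceeded wild type, as in 19.6% of all rows, with the nearly identical replicates 1 and 2 counted separately. DOC3_DM:Jockey:LINE, the most read of them, had 2440, 2040.5 and 2395 normalized counts in wild type and 3650.4, 3611 and 2643 in GCNA null libraries (log2 difference 0.44, limma adjusted p = 0.143). It passed with DESeq2 (adjusted p = 0.035), as did DOC:Jockey:LINE (0.030). With 6 separate samples, replicates 1 and 2 counted as independent, DOC3_DM, DOC and DOC2_DM passed (limma adjusted p = 0.042, 0.025 and 0.0499). The 3 FW rows had a median of 0.14 and overlapped between the groups. The 3 tested BS rows had a median of 0.03, and all overlapped too. LINEJ1_DM:Jockey:LINE, the most read Jockey row after DOC3_DM, had 1743, 1472 and 1547 against 1761, 1666 and 1448 (log2 difference -0.01, 95% interval -0.26 to 0.25). DMCR1A:CR1:LINE, the only CR1 row, had 2544, 2319 and 2710 against 3313, 3437 and 2507 (log2 difference 0.21, 95% interval -0.11 to 0.53). It was above wild type in replicates 1 and 2, and within the wild type range in replicate 3. Baggins1:LOA:LINE had a log2 difference of 0.09.

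Both signs were seen among the 8 rows named G. G2_DM and G5_DM had log2 differences of 0.60 and 0.51 (limma adjusted p = 0.090 and 0.153), whereas G3_DM, G5A_DM and G7_DM were negative. With DESeq2 G2_DM passed (adjusted p = 0.019), and with 6 separate samples G2_DM and G5_DM did (limma adjusted p = 0.022 and 0.044). G7_DM:Jockey:LINE had the lowest of all tested LINE rows. It had 28.1, 25.4 and 27.2 normalized counts in wild type and 9.20, 14.2 and 15.1 in GCNA null libraries, from 79 and 41 reads (log2 difference -0.96, 95% interval -1.69 to -0.23, limma adjusted p = 0.127). The groups did not overlap, and G7_DM was the 1 lower row with 6 separate samples (limma adjusted p = 0.045). That fit counts the nearly identical GCNA null replicates 1 and 2 as independent.

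BS4_DM:Jockey:LINE was the row too scarce for the filter. It had 4.68, 5.29 and 5.45 normalized counts in wild type, which were 15 reads in all, and no read in any GCNA null library. As a share of reads it was 5.23-fold lower in GCNA null ovaries, where 3 reads in the 3 GCNA null libraries together served as the floor. That floor covers counting error of the GCNA null reads only. The error of the 15 wild type reads is left out, so 5.23 is not a lower bound. Without the filter limma called it lower (adjusted p = 0.024). The annotation lists 1 BS4 insertion, of 749 bp, on the plus strand of chromosome 3R at 4582297 to 4583045, in no annotated gene.

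**Figure D4:**
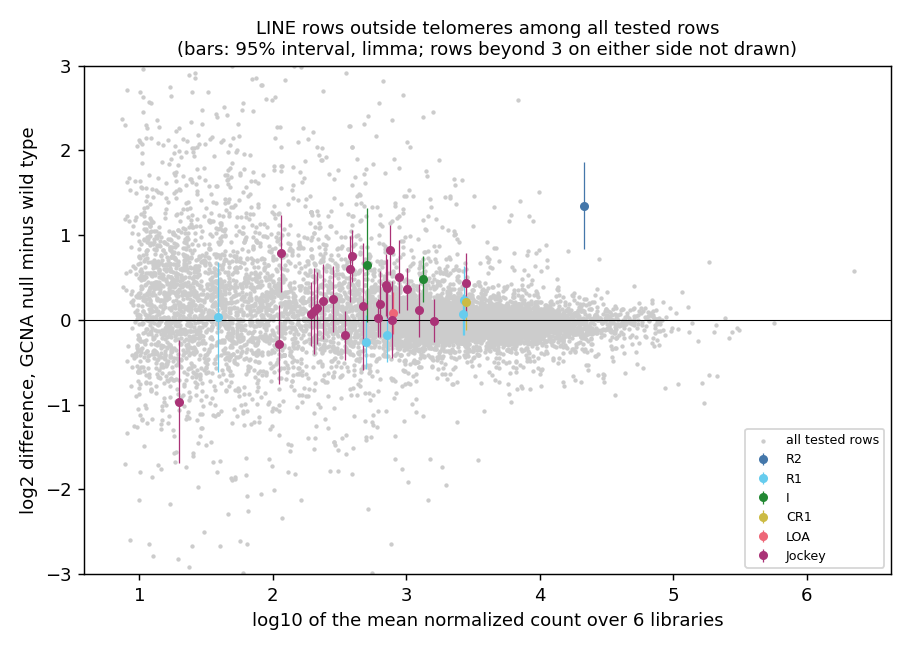
Log2 difference (GCNA null minus wild type) against the log10 mean normalized count for all tested rows (grey) and the 33 tested LINE rows by superfamily, with 95% limma intervals. R2 stands alone at high counts with 1.35, and the lowest LINE row is G7_DM at -0.96. The 114 rows beyond 3 on either side are not drawn.

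Genomic copies were counted in the annotation for the 29 rows whose element name it holds. It lists 789 insertions for them, 129 of at least 4000 bp, and 345 (43.7%) overlap an annotated gene, whose reads may be shared with the row. The reference strain of that annotation is neither of the stocks sequenced. Over the 28 tested rows with a match, Spearman's rho between mean normalized count and annotated total length was 0.67, and between log2 difference and total length -0.03. These are descriptions over rows of the same libraries. DOC had the most insertions of at least 4000 bp, 49 of 81, and a log2 difference of 0.36. R2 and Jockey2 had none of that length, with longest copies of 3608 bp and 3424 bp. The full length of each element was not considered, so this threshold does not tell whether copies are complete. Within 1 Mb of Gcna the annotation places 6 insertions, 1 each of baggins, Rt1c, Doc, G5A, Ivk and I. No annotated insertion of R2 or Jockey2 is among these, and DOC6_DM has no match. Copies absent from the annotation are not covered.

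Other transposable element rows moved as follows in the same fit. All 4 telomere LINE rows rose (median log2 difference 1.49), 21 of 130 LTR rows rose and 1 fell (median 0.22), and 2 of 27 DNA transposon rows rose (median 0.24), where 4.25% of all rows rose and 2.11% fell. GCNA null replicate 3 alone gave medians of 1.52, 0.06 and 0.21 for these 3 classes, against 0.01 for the LINE rows outside telomeres. The mean of replicates 1 and 2 gave 1.46, 0.39 and 0.34, against 0.39 for those LINE rows. No difference between the classes was tested.

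Of the genes in pathways that act on LINE elements, a few passed the test. Of 36 piRNA pathway genes 2 (5.56%) rose and 4 fell, armi among the latter (median log2 difference -0.02), where 4.25% of all rows rose and 2.11% fell. At an unadjusted p under 0.05 there were 5 higher and 8 lower (12.4% and 10.7% of all rows). For these genes edgeR called 2 higher and 3 lower (4.52% and 1.92% of all rows), and DESeq2 4 and 5 (7.45% and 5.35%). The other gene lists are read against the same shares. BoYb, a Tudor-domain protein of germline piRNA production, had 3003, 3041 and 2871 normalized counts in wild type and 4021, 4096 and 4075 in GCNA null libraries (log2 difference 0.45). CG12721 (moon, a transcription factor of piRNA source loci) had a log2 difference of 0.57. qin, which shapes piRNA amplification between Aubergine and Ago3, had 5405, 5021 and 5764 against 3393, 3437 and 3479 (log2 difference -0.64), and shu, a cochaperone for loading Piwi proteins, -0.29. In all 4 genes GCNA null replicate 3 lay nearer to replicates 1 and 2 than to any wild type library. They were named for their small adjusted p, which itself favours such agreement, so it is not a separate result. All 4 passed limma (adjusted p = 0.0054 to 0.035).

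Of 13 RNA polymerase I and nucleolar genes found, 0 rose and 0 fell with limma or edgeR, 1 rose and 1 fell with DESeq2, and 1 of each sign had an unadjusted p under 0.05. The most abundant, mod and Nop60B, had log2 differences of -0.03 and -0.15. Of 19 heterochromatin genes tested, 1 rose and 0 fell, and at an unadjusted p under 0.05 there were 3 higher and 1 lower. The gene that rose was wde, the partner of the histone methyltransferase Eggless (log2 difference 0.40, limma adjusted p = 0.036). Of 7 genes of the siRNA pathway, which also targets transposon RNA, 2 rose and 1 fell. These were AGO2 (log2 difference 0.30, limma adjusted p = 0.049), blanks, and armi (-0.30, limma adjusted p = 0.036), which the piRNA list also holds. In this list edgeR called 1 higher and 0 lower, and DESeq2 2 higher and 1 lower. blanks, a double-stranded RNA binding protein gene, rose from 26.8 ± 2.72 to 244 ± 83.7 normalized counts (log2 difference 3.10, limma adjusted p = 0.0024). The levels of piRNAs and siRNAs themselves were not analysed here.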

How the data were processed

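Ovary RNA of 6 libraries was analysed from 1 table of normalized counts. Per the labels' protocols, RNA from 18 nt upwards was kept, and rRNA was removed before strand-specific library synthesis. The submitters' processing notes name dm6, STAR 2.5, CASAVA 1.8.2 and DESeq2. The sources used here do not give the repeat annotation, read counter, strand setting or treatment of reads with several matches, so strand and copy are unknown and similar elements may share reads. The deposited values are a signal: read counts divided by 1 size factor per library. All values (100%) were whole multiples of 1 step per library, within 0.001, which gave back the reads.

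Groups were compared with limma 3.58.1 in R 4.3.3 (trended empirical Bayes) on log2(value + 1), over rows with at least 10 in at least 3 libraries, with Benjamini-Hochberg adjustment. The scale understates changes of scarce rows. GCNA null replicates 1 and 2 were averaged into 1 sample. Alternatives were other pseudocounts (0.5 and 5), filters and scalings, 6 separate samples with and without a replicate block, leaving out libraries, edgeR 4.0.16 and DESeq2 1.42.0. The fit was also run on simulated counts, drawn as independent samples with the same extra spread in every row. That setting is simpler than these data, so the run does not show how often calls here are false.

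Rows described in full were those past the test, the 6 with the highest mean, R1, R2 and I, and the 2 nearest to passing. Of each gene list up to 4 that passed, or the 2 most abundant, were named. Other rows were named after their values were seen. The LINE rows, gene lists and merging were chosen with earlier results of these data known. Genes were matched by symbol or synonym (1 RNA polymerase I gene and 3 testis genes not analysed here), and insertions by element name in the Ensembl BDGP6 annotation.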

Additional observations from a re-analysis of the deposited data

How the results depend on the processing

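Over the refits of the rows described in full, 165 kept direction and side of the threshold, 12 lost a call, 11 gained one and 9 changed sign, none of the 9 in a row that passed. The count of higher LINE rows (3) was 10 with 6 separate samples, 5 with a replicate block and 8 with DESeq2, and 0 to 7 when libraries were left out. The count of lower rows (0) was 1 without a filter and 1 with 6 separate samples. The median log2 difference (0.19) was 0.097 with quantile normalization, 0.12 to 0.39 with 1 library left out and 0.014 without GCNA null replicates 1 and 2. Over all rows 431 were higher and 214 lower; the counts were 935 and 749 with 6 separate samples, 755 and 542 with DESeq2, 477 lower with the replicate block (640 higher), 222 to 426 higher and 67 to 277 lower with 1 library left out, and 94 and 52 without GCNA null replicates 1 and 2. Sign changes were at -0.0067 (DMCR1A:CR1:LINE) and -0.062 (DMRT1B:R1:LINE) without GCNA null replicates 1 and 2. LINEJ1_DM:Jockey:LINE was 0.033 with 6 separate samples with or without the block, and -0.060 to 0.11 with 1 library left out. R1-2_DM:R1:LINE was -0.28 with quantile normalization and -0.092 to 0.17 with 1 library left out. The cause of these changes was not tested. Deviations of same-numbered libraries correlated at -0.18, 0.073 and -0.094 over 10132 rows. Whether replicate numbers pair the libraries cannot be told from this, since GCNA null replicates 1 and 2 were almost the same library. Wild type replicate 1, for example, correlated at -0.18 with GCNA null replicate 1 and -0.17 with replicate 2. At this depth BS4_DM (15 and 0 reads) and G7_DM (79 and 41) carry the widest counting error.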
